A study of Mus musculus with 24 samples.

Results

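Polyamine metabolism was followed through 10 genes, Odc1, Amd1, Srm, Sms, Sat1, Smox, Paox, Oaz1, Oaz2, and Azin1, which were picked by symbol for their place in the pathway. The choice was made with earlier results of these data known. All 10 symbols were found once among the 56941 genes of the expression values, and all 10 were among the 13315 genes abundant enough to be tested. Polyamines are small positively charged molecules that bind RNA and DNA and are needed for growth and translation. Ornithine decarboxylase (Odc1) makes putrescine, and S-adenosylmethionine decarboxylase (Amd1) makes the aminopropyl donor that spermidine synthase (Srm) and spermine synthase (Sms) add to build spermidine and spermine. Spermidine/spermine acetyltransferase (Sat1), polyamine oxidase (Paox), and spermine oxidase (Smox) lead back toward putrescine. Antizymes (Oaz1, Oaz2) bind the decarboxylase and send it for degradation, and the antizyme inhibitor (Azin1) binds the antizymes in its place. In skeletal muscle, this pathway is known for its link to androgen-driven growth and to muscle mass.

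The tissues were sheets of C2C12, a mouse myoblast line that fuses into contractile myotubes, grown on fibrin hydrogels and differentiated in medium with horse serum and IGF-1. All groups, the controls included, carried the genotype ChR2::tdTomato, a light-gated cation channel joined to a red fluorescent protein, so that blue light made the tissue contract. The control group had no light stimulation, and the 1 Hz, 4 Hz, and 10 Hz groups were stimulated for 60 min each day before RNA was taken on day 16. Each group had 6 biological replicates, for 24 libraries in all. As a model of muscle, these sheets are derived from 1 cell line, and the tissues of all groups, controls among them, also twitched without light. The comparisons ask how the stimulation frequency changed expression of these genes. Total estimated counts per library ran from 8052369 to 18159144.

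The myotube identity of the tissues was checked on 8 marker genes, whose summed TPM (a level corrected for transcript length that sums to 1000000 in each library) ran from 11201 to 14469 in controls, 8019 to 11601 at 1 Hz, 8170 to 12104 at 4 Hz, and 10811 to 11665 at 10 Hz. The myogenic regulators Myod1 and Myog were the 2 of these 8 that were called at 1 and 4 Hz, and both were lower. Summed markers of adipocytes, macrophages, and endothelial cells stayed at or under 1.34 TPM in every library, and of the 3 macrophage markers, Ptprc and Adgre1 reached at most 0.0467 TPM and Csf1r 0.294 TPM. Of 6 cycling-cell markers, 3 were lower and 1 was higher at 4 Hz, and 1 was higher at 1 Hz, with summed levels of 21.3 to 35.6 TPM in controls, 23.1 to 45.4 at 1 Hz, 18.3 to 29.9 at 4 Hz, and 29.5 to 41.3 at 10 Hz. In bulk RNA, fewer cells of a type and less RNA per cell cannot be told apart. RNAs without a poly(A) tail also moved with the groups. The summed level of 8 such RNAs ran from 27.5 to 101 TPM in controls, 73.2 to 298 at 1 Hz, 75.6 to 465 at 4 Hz, and 37.4 to 137 at 10 Hz, and 3 of the 4 that could be tested were higher at 1 and at 4 Hz. The most abundant of them, Rn7sk, had a median of 53.6 TPM in controls and of 130, 106, and 41.2 TPM at 1, 4, and 10 Hz. The labels say that some low-input samples were prepared by removal of ribosomal RNA and do not say which, and the part of library preparation in the results below was not tested. Results are therefore also given without the 6 libraries whose Rn7sk exceeded 1.5 times the highest control, namely 1 Hz replicates 2, 3, and 4 and 4 Hz replicates 1, 3, and 4. Those fits hold fewer libraries at 1 and 4 Hz, and the part of that smaller number in lost calls was not tested. Leaving these libraries out also did not remove the signal. Rmrp, another of these RNAs, lay above every control in all 6 libraries at 1 Hz and all 6 at 4 Hz. Rn7sk stood at 98.7 and 89.8 TPM in 1 Hz replicates 1 and 6, which were kept, against at most 82.4 TPM in controls.

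The pathway is known to be controlled at translation as well as at the level of RNA, and short sequences in these messages carry that control. They are shown because the present values measure RNA abundance and do not see it. The message of Amd1 holds an upstream reading frame of 6 codons and a stop, at chr10:40178151-40178171 on the minus strand in GRCm39 (21 bases of the 5′ UTR, start and stop codon in capitals), whose translation is known to hold back the decarboxylase when polyamines are plentiful. The same letters occur a second time on chromosome 10. The antizyme messages hold a site where ribosomes shift frame when polyamines are plentiful. Each stretch of 30 coding bases is given with the last codon before the shift and the stop codon that the shift avoids in capitals, at chr10:80664117-80664146 for Oaz1 and chr9:65593542-65593571 for Oaz2, both on the plus strand.
Amd1 upstream reading frame: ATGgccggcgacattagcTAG
Oaz1 shift site: cggtggtgcTCCTGAtgtccctcacccacc
Oaz2 shift site: ctgtggtgcTCCTGAtgcccctcacccact

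At both 1 and 4 Hz, Sat1 was the member with the largest rise and Amd1 the member with the largest fall, and the 250 bases before their RefSeq starts are shown for that reason. They lie at chrX:153999446-153999695 and chr10:40178185-40178434, both on the minus strand of GRCm39, and were taken from RefSeq on GRCm38.p6 and placed by exact match. Capitals mark GGGCGG, the GC box bound by Sp1 family factors, on either strand.
Sat1: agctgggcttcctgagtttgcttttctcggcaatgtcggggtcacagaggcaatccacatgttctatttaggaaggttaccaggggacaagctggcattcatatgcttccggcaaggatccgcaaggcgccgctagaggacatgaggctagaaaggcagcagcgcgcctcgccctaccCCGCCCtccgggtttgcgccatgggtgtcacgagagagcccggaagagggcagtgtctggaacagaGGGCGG
Amd1: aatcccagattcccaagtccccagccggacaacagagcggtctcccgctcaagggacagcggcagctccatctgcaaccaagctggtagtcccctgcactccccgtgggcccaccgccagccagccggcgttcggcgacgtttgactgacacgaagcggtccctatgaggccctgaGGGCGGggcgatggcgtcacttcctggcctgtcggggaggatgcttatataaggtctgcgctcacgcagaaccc
The stretch before Sat1 held 2 GC boxes and that before Amd1 held 1. Neither stretch held CACGTG, the E-box that MYC binds, or the exact letters TATAAA, an element of the core promoter. Variants of these letters were not searched, and the Amd1 stretch holds the similar letters tatataag near its end. RefSeq promoters were matched for 8 of the 10 members, and Srm and Azin1 had no entry. These 8 genes had 10 promoter entries, with 2 each for Paox and Sms. GC boxes occurred in 8 of the 10 entries, against 32.7% of all 32851 entries of the same length. The E-box occurred in 1 of the 10, an entry of Sms, against 6.02% of all, and the exact letters TATAAA in 0 of the 10, against 12.4%. By gene, GC boxes occurred in 7 of the 8, and the 2 entries of Paox overlap each other. The share among genes abundant enough to be tested was not computed, so these counts are no result about the members as a set. These matches describe letters and do not show binding.

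In the Ensembl annotation of GRCm39, the synthesis genes lie at chr12:17594383-17601507 (Odc1), chr10:40162797-40178185 (Amd1), chr4:148675940-148681792 (Srm), and chrX:156226848-156275317 (Sms). The genes of the return path lie at chrX:153996128-153999452 (Sat1), chr2:131333416-131368431 (Smox), and chr7:139695712-139717169 (Paox), and the regulators lie at chr10:80662516-80665124 (Oaz1), chr9:65575283-65597582 (Oaz2), and chr15:38487539-38519785 (Azin1). Paox shares part of its span with Echs1 on the opposite strand, and the strand setting of the counting is not given in the sources used here. Reads of Amd1, Sms, and Oaz1 can also be split with near-identical copies. Amd2 had a control median of 12.6 TPM beside 142 TPM for Amd1, Sms-ps had 12.8 beside 87.4 for Sms, and Oaz1-ps had 35.9 beside 563 for Oaz1.

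In unstimulated tissue, the antizyme Oaz1 was the most abundant member, with 513 to 628 TPM (median 563). Sat1 followed at 285 to 355 TPM (median 308) and Azin1 at 248 to 310 TPM (median 278), and these ranges overlapped. Odc1 stood at 148 to 165 TPM (median 157), Amd1 at 128 to 152 (median 142), Srm at 91.2 to 133 (median 108), and Sms at 85.1 to about 100 (median 87.4), each range overlapping that of its neighbor in this order. Below these, Oaz2 stood at 54.5 to 59.3 TPM, Smox at 14.3 to 21.1 TPM, and Paox at 2.66 to 4.82 TPM, without overlap. At 4 Hz the median levels were 73.4 TPM for Amd1 and 65.9 TPM for Srm, both below the 98.9 TPM of Sms.

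Of the 4 synthesis genes, the 2 that were lower than control at both 1 and 4 Hz were Amd1 and Srm. Amd1, which commits S-adenosylmethionine to polyamine synthesis, had 263 to 297 CPM (estimated counts in a library scaled to 1000000 with TMM) in controls with a median of 281. It had 178 to 253 CPM at 1 Hz (median 207), 162 to 220 at 4 Hz (median 185), and 264 to 309 at 10 Hz (median 284). All 6 libraries at 1 Hz and all 6 at 4 Hz lay below every control, whereas at 10 Hz 5 lay within the range of the controls and 1 above it. Its log2(fold change) was -0.40 ± 0.078 (SE, n = 6 and 6) at 1 Hz, a fall of 24%, with an adjusted p of 0.000342 in edgeR's quasi-likelihood test with Benjamini-Hochberg adjustment. At 4 Hz it was -0.58 ± 0.079 with an adjusted p of 1.62e-06, and at 10 Hz it was 0.01 with a 95% interval from -0.15 to 0.17. The copy Amd2 was lower by the same test, with log2(fold change) of -0.37 at 1 Hz (adjusted p = 0.0132), and it stood at -0.60 for 4 Hz (adjusted p = 0.000204).

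Srm, which makes spermidine, had 69.6 to 93.3 CPM in controls (median 83.3), 57.8 to 80.2 at 1 Hz (median 65.1), 42.3 to 68.8 at 4 Hz (median 59.6), and 73.2 to 103 at 10 Hz (median 92.7). The controls and the 1 Hz libraries overlapped, with 5 of 6 below every control, and at 4 Hz all 6 lay below. For Srm, edgeR gave a log2(fold change) of -0.31 ± 0.11 at 1 Hz (adjusted p = 0.0262) and one of -0.51 ± 0.11 for 4 Hz (adjusted p = 0.000425). The call at 1 Hz was lost without control replicate 3 (-0.27, adjusted p = 0.0767), also without control replicate 5 (-0.27, adjusted p = 0.076) and without 1 Hz replicate 2 (-0.29, where adjusted p = 0.0517), and without the libraries high in Rn7sk, where the log2(fold change) was -0.18 (adjusted p = 0.247). The 4 Hz call held without those libraries at -0.36 (adjusted p = 0.0167).

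Odc1, the enzyme that opens the pathway, differed little between groups. It had 200 to 215 CPM in controls, 181 to 224 at 1 Hz, 199.8 to 219 at 4 Hz, and 193 to 218 at 10 Hz, and the groups overlapped, although 4 of 6 libraries at 1 Hz lay below every control. Its log2(fold change) was -0.04 at 1 Hz (95% interval -0.15 to 0.073), 0.015 at 4 Hz (-0.098 to 0.13), and -0.0029 at 10 Hz (-0.12 to 0.11). The direction at 4 Hz turned with the scaling, and on TPM values Odc1 was called lower.

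Sms, which makes spermine, had 108 to 132 CPM in controls (median 115), 94.1 to 197 at 1 Hz (median 125), 130 to 216 at 4 Hz (median 151), and 92.3 to 136 at 10 Hz (median 107). The 1 Hz libraries spread on both sides of the controls, and 4 of 6 libraries at 4 Hz lay above every control. Its log2(fold change) was 0.43 ± 0.15 at 4 Hz with an edgeR adjusted p of 0.0174, and 0.27 ± 0.15 at 1 Hz with an adjusted p of 0.143. The 4 Hz call was lost without 4 Hz replicate 3, at 0.28 (adjusted p = 0.0893), and without the libraries high in Rn7sk, at 0.28 (adjusted p = 0.16). At 4 Hz, Sms and Srm, the enzyme before it in the pathway, were thus called in opposite directions.

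**Figure D1:**
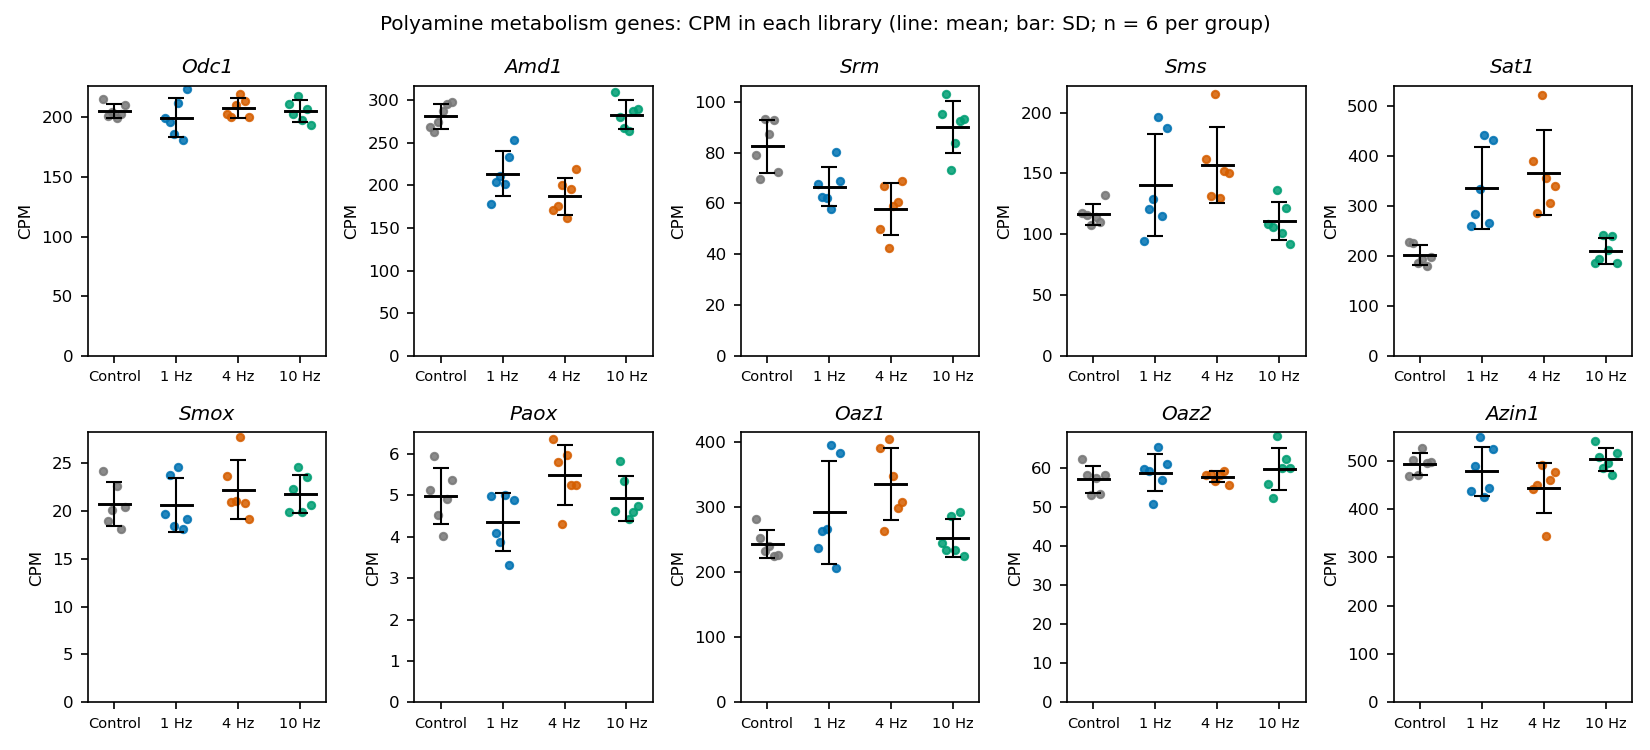
Normalized read counts of the 10 genes in CPM (y axis, from 0) for the control, 1 Hz, 4 Hz, and 10 Hz groups (x axis), with a point for each library, a line at the mean, and a bar for the SD of 6 libraries. Sat1 lay between 260 and 524 CPM at 1 and 4 Hz and between 180 and 242 CPM in controls and at 10 Hz, whereas Amd1 showed the opposite order and Odc1 stayed between 181 and 224 CPM in all 24 libraries.

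Of the 3 genes of the return path, 1 differed from control by the test, Sat1, which was higher at 1 and 4 Hz. Sat1, whose product acetylates spermidine and spermine for export or oxidation, had 180 to 229 CPM in controls (median 197), 260 to 443 at 1 Hz (median 310), 286 to 524 at 4 Hz (median 348), and 187 to 242 at 10 Hz (median 203). Every library at 1 and 4 Hz lay above every control, and the 10 Hz libraries overlapped the controls. Its log2(fold change) was 0.74 ± 0.14 at 1 Hz, or 1.67-fold, with an edgeR adjusted p of 0.000241. At 4 Hz it was 0.86 ± 0.14, or 1.81-fold, with an adjusted p of 2.34e-05. Both calls held without the libraries high in Rn7sk, at 0.67 (adjusted p = 0.00188) and 0.59 (adjusted p = 0.00248). At 10 Hz the log2(fold change) was 0.054 with a 95% interval from -0.23 to 0.34. In CPM, the spread within groups was wider at 1 and 4 Hz, with a coefficient of variation of 10.3% in controls and 24.5%, 23.2%, and 12.1% at 1, 4, and 10 Hz. On TPM values, the spread relative to the mean at 1 and 4 Hz was near that of controls. There the mean and SD were 316 and 27.5 in controls, 455 and 43.8 at 1 Hz, 458 and 40.5 at 4 Hz, and 323 and 19.6 at 10 Hz.

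Smox, which oxidizes spermine directly to spermidine, had 18.1 to 24.1 CPM in controls, 18.1 to 24.5 at 1 Hz, 19.1 to 27.7 at 4 Hz, and 19.8 to 24.6 at 10 Hz. These ranges overlapped, and its log2(fold change) had 95% intervals of -0.21 to 0.20 at 1 Hz, -0.11 to 0.31 at 4 Hz, and -0.14 to 0.28 at 10 Hz. Paox, which oxidizes acetylated polyamines, was the least abundant member at 4.02 to 5.95 CPM in controls, 3.31 to 5.00 at 1 Hz, 4.31 to 6.36 at 4 Hz, and 4.42 to 5.82 at 10 Hz. The edgeR log2(fold change) of Paox was -0.19 ± 0.13 at 1 Hz (adjusted p = 0.243), whereas the 4 Hz value was 0.14 ± 0.13 (adjusted p = 0.355), and neither value passed the test. The 95% intervals ran from -0.45 to 0.07 at 1 Hz and from -0.12 to 0.40 at 4 Hz.

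Among the genes that control the decarboxylase, Oaz1 was higher than control at 4 Hz. It had 225 to 282 CPM in controls (median 237), 207 to 396 at 1 Hz (median 265), 263 to 405 at 4 Hz (median 328), and 226 to 294 at 10 Hz (median 240). At 4 Hz 5 of 6 libraries lay above every control, whereas at 1 Hz only replicates 4 and 6 did. By edgeR, Oaz1 differed from control by 0.46 ± 0.13 in log2 units at 4 Hz (adjusted p = 0.00507), and the value at 1 Hz was 0.26 ± 0.13 (adjusted p = 0.114). Without the libraries high in Rn7sk, the value at 4 Hz was 0.23 with an adjusted p of 0.226. Oaz2, the second antizyme, had 53.1 to 62.3 CPM in controls and 50.8 to 68.3 across the stimulated libraries, with log2(fold change) of 0.045, 0.017, and 0.065 at 1, 4, and 10 Hz. The test of Oaz2 was passed at no frequency (edgeR adjusted p from 0.63 to 0.903).

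Azin1, which frees the decarboxylase from antizyme, had 468 to 527 CPM in controls (median 496), 424 to 548 at 1 Hz (median 466), 344 to 490 at 4 Hz (median 455), and 470 to 540 at 10 Hz (median 502). At 4 Hz 4 of 6 libraries lay below every control. The edgeR values of Azin1 were -0.05 at 1 Hz (adjusted p = 0.661) and -0.15 with a 95% interval from -0.31 to 0.0044 at 4 Hz (adjusted p = 0.0968). At 4 Hz it passed the threshold in DESeq2, with -0.18 (adjusted p = 0.0442), and when 4 Hz replicate 3 was left out, with -0.21 (adjusted p = 0.0279).

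**Figure D2:**
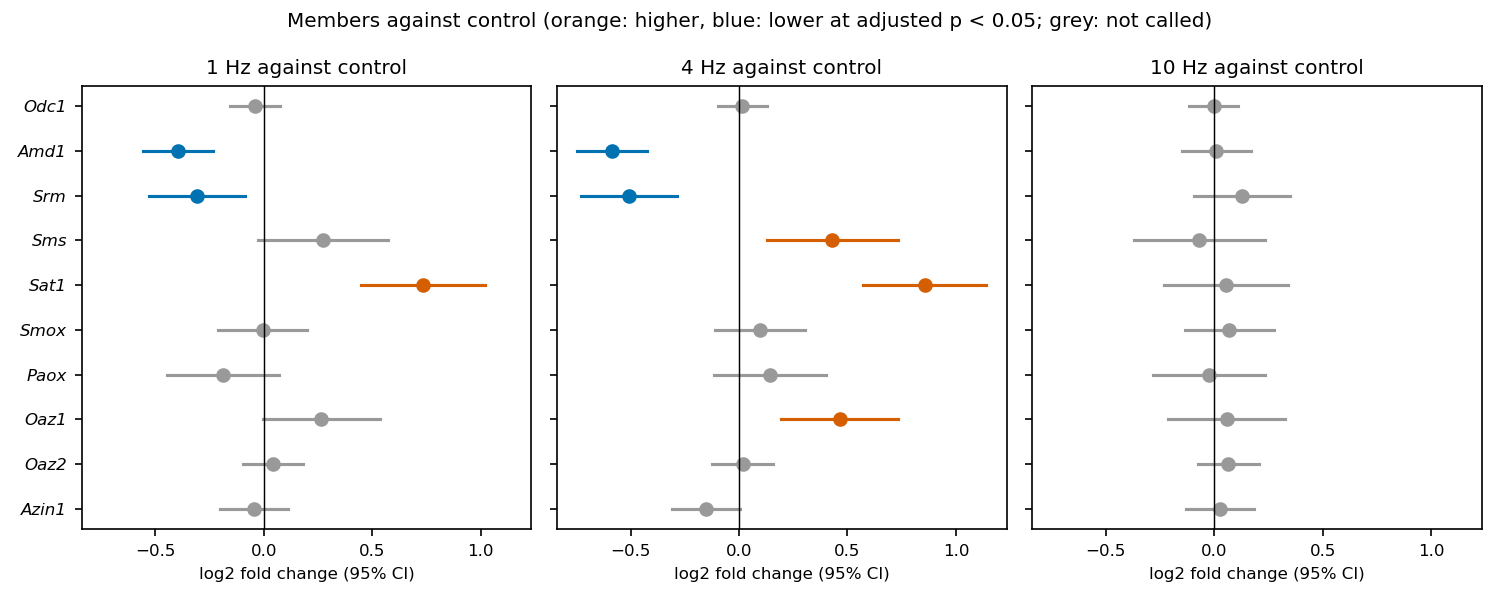
The log2(fold change) of each gene against control (x axis) with its 95% interval from edgeR, in a panel for each frequency and with the genes on the y axis. Orange and blue mark genes higher and lower at an adjusted p under 0.05, which were 3 genes at 1 Hz and 5 at 4 Hz, and no interval at 10 Hz leaves 0 out.

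Counted together, 1 of 10 members was higher and 2 were lower at 1 Hz (adjusted p under 0.05), where 19.2% of all tested genes were higher and 18.1% lower. At 4 Hz 3 were higher and 2 lower, against 27.5% and 23.9% of all genes. With an absolute log2(fold change) over 0.5 required as well, 1 member remained at 1 Hz (Sat1) and 3 at 4 Hz (Sat1, Amd1, and Srm), against 14.9% and 25.1% of all genes. All 6 libraries lay outside the range of the controls for 2 members at 1 Hz and 3 at 4 Hz, against 14.1% and 27.6%. These shares are near those of all genes and are no result about the members as a set. The median log2(fold change) of the members was -0.02 at 1 Hz and 0.058 at 4 Hz, beside 0.041 and 0.061 for all genes tested.

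At 10 Hz, edgeR called 0 members, with 0 at an unadjusted p under 0.05 and 0 called by DESeq2. The background at 10 Hz was 0.015% of genes higher and 0.0225% lower, 0.0376% with the fold threshold, and 1.64% with all libraries outside the controls. The absolute log2(fold change) of the members reached at most 0.13, for Srm.

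The frequencies were also compared with each other in the same fit. Between 4 Hz and 1 Hz, edgeR called 0 of the members and 0% of all genes, 2 members had an unadjusted p under 0.05, and DESeq2 called 0. These 2 were Amd1, at -0.19 (95% interval -0.35 to -0.027), and Paox, at 0.33 (0.067 to 0.60). Between 10 Hz and 1 Hz, Amd1 was higher at 0.41 ± 0.079 (edgeR adjusted p = 0.000468) and Srm at 0.44 ± 0.11 (adjusted p = 0.00397), against 14.8% of all genes higher, and Sat1 was lower at -0.68 ± 0.14 (adjusted p = 0.000876), against 13.1% lower. Between 10 Hz and 4 Hz, Amd1 was higher at 0.59 ± 0.079 (adjusted p = 2.16e-06) and Srm at 0.64 ± 0.11 (adjusted p = 5.26e-05), against 21.9% of all genes. Sat1 was lower at -0.80 ± 0.14 (adjusted p = 7.56e-05), Sms at -0.50 ± 0.15 (adjusted p = 0.00808), and Oaz1 at -0.41 ± 0.13 (adjusted p = 0.0139), against 24.4% of all genes lower. The Sms and Oaz1 differences were not called without the libraries high in Rn7sk, which left Amd1, Srm, and Sat1. Over 8 alternatives, 2 to 3 members were called between 10 Hz and 1 Hz, and 3 to 6 between 10 Hz and 4 Hz. The comparisons at 1, 4, and 10 Hz with control share the 6 control libraries.

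Ratios of TPM values within a library do not depend on how libraries are scaled to each other and are given as descriptions. The share of all gene pairs whose ratio leaves the range of the controls was not computed. For single genes, all libraries did so in 14.1% at 1 Hz and 27.6% at 4 Hz. The counts below are therefore no result about these pairs. The ratio of Odc1 to its inhibitor Oaz1 ran from 0.254 to 0.307 in controls (median 0.276), 0.175 to 0.276 at 1 Hz (median 0.241), 0.181 to 0.243 at 4 Hz (median 0.204), and 0.225 to 0.284 at 10 Hz (median 0.275), and all 6 libraries at 4 Hz lay below every control. The ratio of Azin1 to Oaz1 had a median of 0.521 in controls and of 0.451, 0.301, and 0.523 at 1, 4, and 10 Hz, with 5 of 6 libraries at 4 Hz below every control. The ratio of Amd1 to Odc1, the 2 decarboxylases, had medians of 0.914, 0.702, 0.59, and 0.912 in the same order. In it, 5 of 6 libraries at 1 Hz and 6 of 6 at 4 Hz lay below the controls. The ratio of Amd1 to Srm had medians of 1.24, 1.23, 1.18, and 1.16, with overlapping ranges of 1.09 to 1.53 in controls and 0.975 to 1.79 at 4 Hz. Srm to Sms had medians of 1.25, 0.898, 0.738, and 1.48, and all 6 libraries at 4 Hz lay below the controls. Sat1 to Smox had medians of 18.2, 31.8, 31.5, and 18.4, with 5 of 6 libraries at 1 Hz and 6 of 6 at 4 Hz above the controls. Smox to Paox had medians of 4.18, 3.57, 3.28, and 4.83. TPM also rests on the estimated transcript length, which differed between groups for Paox. Relative to the median gene of a library, its length had medians of 0.917, 0.639, 0.653, and 0.872 in the same order. For Azin1 that length reached 1.67 at 1 Hz, against at most 1.31 in controls. The part of length in these ratios was not tested.

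**Figure D3:**
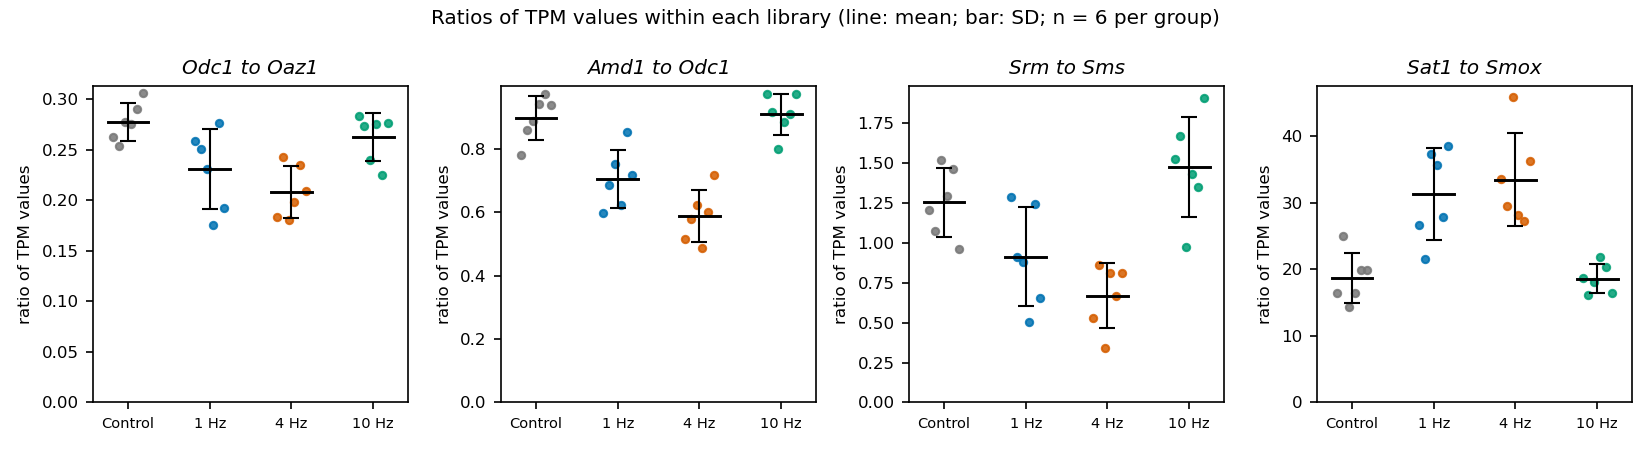
Ratios of TPM values of gene pairs within each library (y axis, from 0) for the 4 groups (x axis), with a point for each library, a line at the mean, and a bar for the SD of 6 libraries. Odc1 to Oaz1, Amd1 to Odc1, and Srm to Sms lay below the controls in all 6 libraries at 4 Hz, and Sat1 to Smox lay above them. The share of all gene pairs that separate in this way was not computed.

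The wider pathway was described with 37 other genes, of which 28 were abundant enough to test. These 28 include 6 genes of the MYC network, which is not itself part of the pathway. Of those 6, 4 were higher at 1 Hz, and 5 were higher and 1 lower at 4 Hz. At 1 Hz 10 of the 28 were higher and 6 lower, where 19.2% of all tested genes were higher and 18.1% lower. At 4 Hz 10 were higher and 8 lower, where the shares of all genes were 27.5% and 23.9%. Every count from these 28 genes below, the MYC network included, stands against these shares at 1 and 4 Hz. At 10 Hz edgeR called 0 (2 at an unadjusted p under 0.05). Without the libraries high in Rn7sk, 8 were higher and 5 lower at 1 Hz, against 9.16% and 10.9% of all genes, and 6 and 5 at 4 Hz, against 13.3% and 17.9%. The median of these 28 genes was 0.14 (1 Hz) and 0.20 (4 Hz) in log2(fold change), beside 0.041 and 0.061 for all genes tested. For the 6 MYC network genes alone it was 0.37 and 0.56. The genes not tested were at or under 0.843 TPM in every library, among them the arginases Arg1 and Arg2, which make ornithine in other tissues. Of the 4 tested genes that supply precursors, 3 were higher and 1 lower at both frequencies. Mat2a, the catalytic subunit that makes S-adenosylmethionine, fell from 514 to 598 CPM in controls to 259 to 361 at 1 Hz and 189 to 305 at 4 Hz, with log2(fold change) of -0.83 ± 0.089 (adjusted p = 1.54e-07) and -1.14 ± 0.09. Its regulatory subunit Mat2b was higher at 0.26 and 0.28, as were Oat at 0.31 and 0.22 and Aldh18a1 at 0.26 and 0.22, which both act around ornithine and proline. The Mat2a calls held without the libraries high in Rn7sk (-0.77 and -1.02), whereas Mat2b was then not called at either frequency (adjusted p = 0.0794 and 0.186), nor Oat at 4 Hz (adjusted p = 0.0634).

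Of the 5 methionine salvage genes, which recycle the byproduct of the Srm and Sms reactions, Mtap and Enoph1 were lower at both frequencies. Mtap, the first enzyme of salvage, changed by -0.47 ± 0.072 at 1 Hz (edgeR adjusted p = 1.9e-05), with a value of -0.57 ± 0.073 for 4 Hz (adjusted p = 7.23e-07), and Enoph1 by -0.53 and -0.64. All 6 libraries of both genes lay below every control at both frequencies. Adi1 was higher at 1 Hz at 0.25. Of the 6 tested transport genes, 2 were lower and 0 higher. They were Atp13a3, a polyamine transporter, at -0.51 ± 0.11 and -0.74 ± 0.11, and Slc18b1, a vesicular polyamine transporter, at -0.39 ± 0.14 and -0.52 ± 0.15. Without the libraries high in Rn7sk, Mtap, Enoph1, and Atp13a3 were still called lower at both frequencies, and Slc18b1 was not (-0.36 and -0.43, adjusted p = 0.156 and 0.0717).

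Spermidine is the substrate for hypusine, a modification of the translation factor eIF5A. Of 4 genes of that step, Dhps, which starts the modification, was higher at 0.37 ± 0.11 (1 Hz, edgeR adjusted p = 0.0128) and 0.46 ± 0.12 (4 Hz, adjusted p = 0.00183), and Eif5a2 was lower at 4 Hz at -0.47 ± 0.15 (adjusted p = 0.0096). None of these 3 calls held without the libraries high in Rn7sk, where Dhps was 0.28 and 0.22 (adjusted p = 0.07 and 0.122) and Eif5a2 was -0.31 (adjusted p = 0.125). Among close relatives of the members, Azin2, a second antizyme inhibitor, was higher at 0.51 ± 0.099 and 0.62 ± 0.10, with all 6 libraries above every control at both frequencies, and was still called without the libraries high in Rn7sk (0.43 and 0.54). Its level was low beside Azin1, with control medians of 11.3 against 278 TPM.

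Odc1 is a known target of MYC, and 6 genes of the MYC network were tested. At 1 Hz 4 were higher and 0 lower, and at 4 Hz 5 were higher and 1 lower. The 4 higher at both frequencies encode proteins that pair with MAX in place of MYC. Mxi1 stood at 0.43 ± 0.071 and 0.50 ± 0.071, Mxd4 at 0.32 and 0.33, Mxd1 at 0.77 ± 0.15 and 1.00 ± 0.15, and Mnt, named after its values were seen, at 0.47 and 0.67, and all 4 were still called without the libraries high in Rn7sk. The partner Max was lower at 4 Hz at -0.23, and Myc itself, also named after its values were seen, was higher there at 0.63 ± 0.19 (edgeR adjusted p = 0.00733). Neither was called without those libraries (adjusted p = 0.284 for Max and 0.0694 for Myc).

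**Figure D4:**
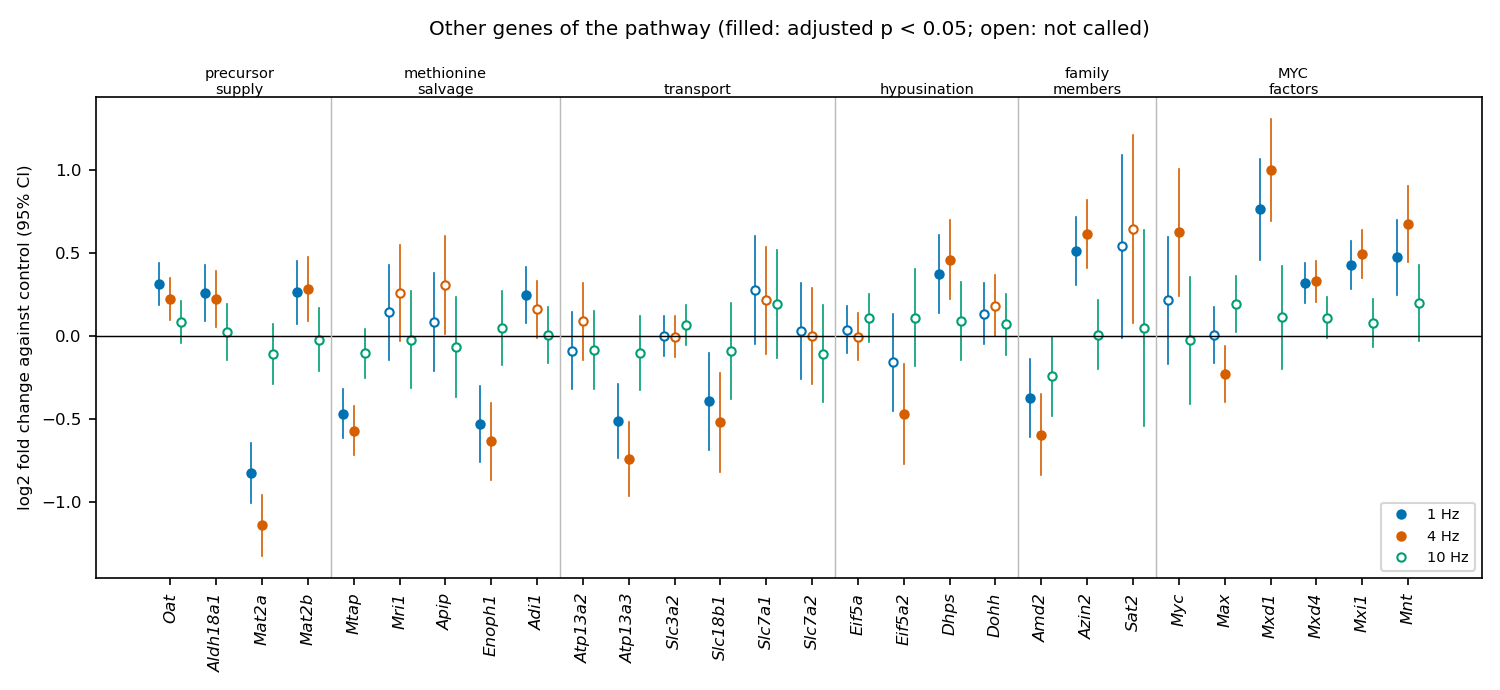
The log2(fold change) against control (y axis) with its 95% interval for 28 other genes of the pathway and the MYC network (x axis, grouped by role). Values are shown at 1, 4, and 10 Hz, with filled points for an adjusted p under 0.05. Mat2a showed the largest shift, -1.14 at 4 Hz, and no point at 10 Hz is filled.

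The scale of the values mattered for several members. On TPM values the median gene shifted by -0.14 (1 Hz) and -0.21 (4 Hz) in log2 units, beside 0.041 and 0.061 under TMM, so that values on the TPM scale sit lower as a whole. On that scale limma called Odc1 lower, at -0.26 (1 Hz, adjusted p = 0.0127) and -0.29 (4 Hz, adjusted p = 0.00263). At 4 Hz it also called Oaz2 (-0.31, adjusted p = 0.0115) and Azin1 (-0.52, adjusted p = 0.013) lower, and Sms (0.12, adjusted p = 0.362) and Oaz1 (0.13, adjusted p = 0.152) were not called. With the median of each library removed, Odc1, Oaz2, and Azin1 were not called and Sms and Oaz1 were called again at 4 Hz. Paox was called higher at 4 Hz on that scale alone (0.45, adjusted p = 0.0136). Its estimated length relative to the median gene was lower there, with medians of 0.653 at 4 Hz and 0.917 in controls. The part of that length in the call was not tested. Amd1 was lower and Sat1 higher at 1 and 4 Hz in each of 24 alternatives, with a log2(fold change) of -0.91 to -0.54 for Amd1 and 0.53 to 0.92 for Sat1 at 4 Hz.

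**Figure D5:**
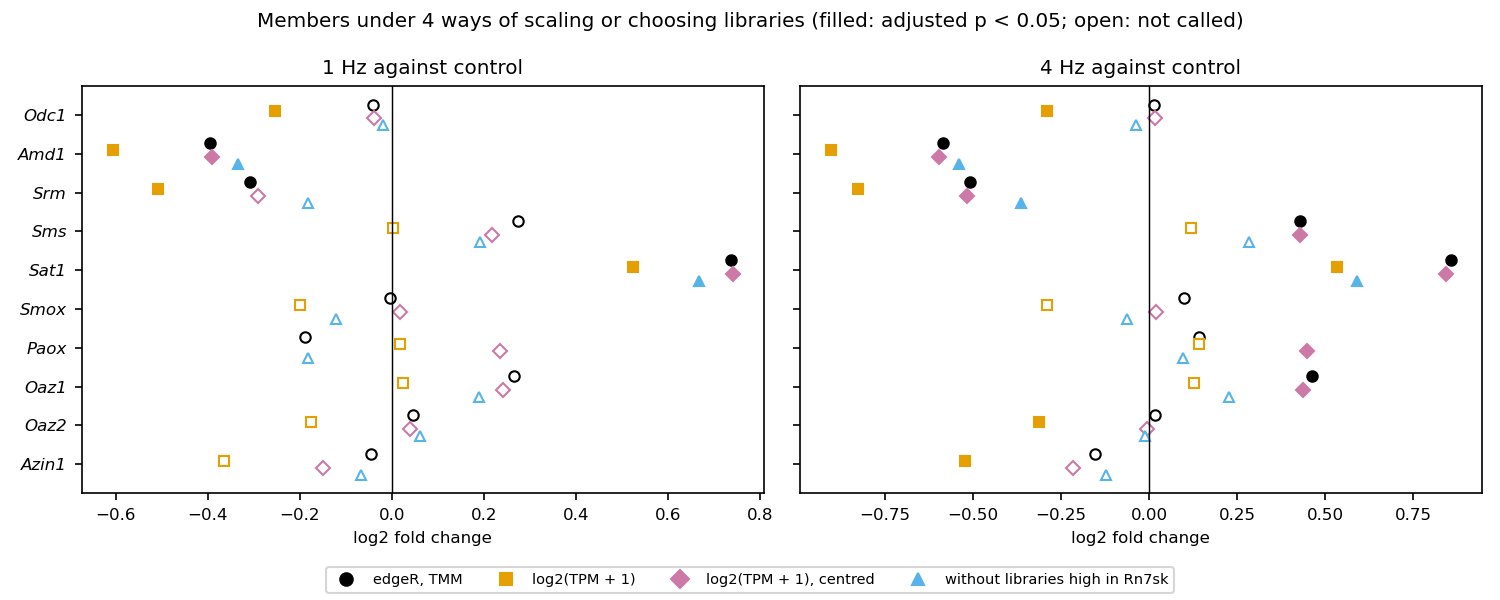
The log2(fold change) of each gene at 1 Hz and 4 Hz (x axis) under TMM scaling, on log2(TPM + 1), on log2(TPM + 1) with the median of each library removed, and without the libraries high in Rn7sk, with filled points for an adjusted p under 0.05. Amd1 and Sat1 are filled under all 4, and Sms and Oaz1 are filled at 4 Hz under 2 of the 4.

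Genes whose log2 CPM followed the called members most closely over the 24 libraries were listed as a description, since all share libraries and groups. For Amd1 they were Dkc1, a protein of the pseudouridine synthase and telomerase complexes (Pearson's r = 0.97), and Rnf168 (0.959), and for Srm they were Mfsd5 (0.961) and Pcid2 (0.953). For Sat1 they were Rtraf (0.98) and the ribosomal protein gene Rps24 (0.976), for Sms Fkbp3 (0.979) and Apoo (0.977), and for Oaz1 the mitochondrial protein genes Atp5j2 and Chchd2 (both 0.984). With the group means removed, Sat1, Sms, and Oaz1 still varied together over the 24 libraries, with r of 0.917 for Sat1 and Oaz1, 0.875 for Sms and Sat1, and 0.822 for Sms and Oaz1. In CPM of these 3 genes, 1 Hz replicates 4 and 6 and 4 Hz replicate 3 were the highest libraries of their groups. On TPM values, Oaz1 in 4 Hz replicate 3 had 588, below the 710 of 4 Hz replicate 1. The TMM factors of the 3 libraries were 0.904, 0.931, and 0.869, against 1.018 to 1.074 in controls, and the part of this scaling was not tested. The same 3 libraries had 3.97%, 4.87%, and 8.90% of their counts in mitochondrially encoded genes, against 1.37% to 2.72% in controls. Of the other libraries, 4 Hz replicate 6 had 4.34%, with CPM of the 3 genes in the middle of its group. At 0.545%, 4 Hz replicate 1 had the lowest share of all libraries, with the second highest CPM of its group. The part of that share in these levels was not tested.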

How the data were processed

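RNA of C2C12 tissues was sequenced by the authors as 50-base read pairs on a Singular G4 instrument, after poly(A) selection or, for unnamed low-input samples, ribosomal RNA depletion. The deposited estimated counts per gene came from Salmon within the authors' nf-core/rnaseq pipeline, run on the Ensembl GRCm39 annotation, without normalization. The deposited TPM values came from the same run and are corrected for transcript length and scaled to 1000000 per library. The submitters' processing notes also list BWA 0.7.12-r1039, bedtools 2.25.0, STAR, and the builds mm10 and hg19, without their role.

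Samples were grouped by the frequency in their titles. Estimated counts were rounded, low genes were dropped with filterByExpr (counts of at least 10, total of at least 15), and libraries were scaled by TMM in edgeR 4.0.16 (R 4.3.3). The robust quasi-likelihood F test was fitted to all 24 libraries with a mean for each group, and p-values were adjusted over all 13315 genes by the Benjamini-Hochberg method, with calls at an adjusted p under 0.05. The biological coefficient of variation was 14.8%. CPM values use TMM library sizes, and log2 CPM a prior count of 2. The procedure was tested on simulated data. No library pair held identical values. Intervals cover 95%, and p-values measure the spread between these tissues.

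The 10 members were all named. Other pathway genes were named where called, at most 2 per direction, list, and comparison by smallest p, and the 2 genes of highest Pearson's r were named for each called member. The members and lists were chosen with earlier results of these data known. Alternatives were DESeq2 1.42.0 with and without apeglm 1.24.0, other size factors, other filters, limma 3.58.1 on log2(TPM + 1) and log2(TPM + 0.1), a replicate block, each library left out, and 2 chosen after seeing the data (centred TPM values and leaving out libraries high in Rn7sk). Promoters came from RefSeq on GRCm38.p6, gene positions and transcripts from GENCODE M39.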

Additional observations from a re-analysis of the deposited data

Results flagged for a closer look

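Of 40 sets of 6 libraries (10 genes in 4 groups), 2 held a library that stood far from the other 5 by Dixon's test, which chance does in about 1 in 20. Sms had 216 CPM in 4 Hz replicate 3, against 130 to 162 in the other 5 libraries of that group. Azin1 had 344 CPM in 4 Hz replicate 4, against 442 to 490 in the other 5. Both flags rest on CPM, and Dixon's test was not run on TPM values. On TPM values, Sms had 109 in 4 Hz replicate 3, against 75.4 to 106 in the other 5. Azin1 had 152 TPM in 4 Hz replicate 4, against 167 to 243 in the other 5. The TMM factor of 4 Hz replicate 3 was 0.869, the lowest of all libraries. Without 4 Hz replicate 3, Sms was no longer called at 4 Hz (0.28, edgeR adjusted p = 0.0893). That library also had the largest share of counts in mitochondrially encoded genes (8.90%), and 4 Hz replicate 4 had the highest Rn7sk (338 TPM). The part of these differences in either value was not tested.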

How the results depend on the processing

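Amd1 and Sat1 at 1 and 4 Hz and Srm at 4 Hz kept their direction and call in all 24 alternatives. The number of members called fell from 3 to 1 at 1 Hz and from 5 to 3 at 4 Hz with the fold threshold. Without the libraries high in Rn7sk it was 3 at 4 Hz, where 13.3% of all genes were higher and 17.9% lower. Between 10 Hz and 4 Hz it was also 3, and the share of all genes there is not given. Leaving out 1 library gave 2 to 4 members at 1 Hz, 5 at 4 Hz, and 0 at 10 Hz. With the replicate block, 3, 5, and 0 members were called at 1, 4, and 10 Hz, and no call of a member changed. Same-numbered libraries of different groups had a median r of -0.02 (36 pairs, r from -0.332 to 0.242, 3 above 0.1). A weak shared factor could leave r this low, and the labels do not say whether the numbers pair the samples. Srm at 1 Hz was not called on centred TPM values (-0.29, adjusted p = 0.0536), Sms at 4 Hz was not called with no filter (0.39, adjusted p = 0.0811), and Sms and Oaz1 passed at 1 Hz without 1 Hz replicate 1 (0.36, adjusted p = 0.0399) and 1 Hz replicate 5 (0.35, adjusted p = 0.0289).

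The values that changed sign were of genes not called on the TMM scale in that comparison. At 4 Hz, Odc1 was -0.0109 with DESeq2 size factors, -0.0288 with no filter, -0.0117 with 2 groups fitted, -0.0108 in DESeq2, -0.0112 with apeglm, and -0.0359 without the libraries high in Rn7sk. Oaz2 was -0.00909, -0.0271, -0.0101, -0.00987, -0.0095, and -0.0122 in the same order, and -0.0049 on centred TPM values. With pseudocounts of 1 and 0.1 on TPM, Odc1 was -0.29 and -0.292, Oaz2 -0.313 and -0.319, and Smox -0.289 and -0.305, and Smox was -0.0623 without the libraries high in Rn7sk. At 1 Hz, the same TPM fits gave Paox 0.0175 and 0.0226 and Oaz2 -0.177 and -0.18, centred TPM gave Paox 0.235 and Smox 0.0171, and upper-quartile factors gave Smox 0.0148. At 10 Hz they gave Amd1 -0.0105 and -0.0106 and Azin1 -0.0631 and -0.0634, with -0.0463 for Azin1 on centred TPM. Leaving out 1 library, Smox ranged from -0.0876 to 0.0425 and Oaz2 from -0.0101 to 0.0702 at 1 Hz. At 4 Hz, Odc1 ranged from -0.0299 to 0.0281, Oaz2 from -0.0209 to 0.0422, and Smox from -0.00475 to 0.146. At 10 Hz, Odc1 ranged from -0.0219 to 0.0148, Amd1 from -0.016 to 0.0292, and Paox from -0.0827 to 0.0402. The causes were not tested. The standard errors of Paox, at or under 6.36 CPM in every library, were no larger than those of Sms, Sat1, and Oaz1. Of the pathway and MYC network genes called, 13 of 16 at 1 Hz and 11 of 18 at 4 Hz kept their call without the libraries high in Rn7sk.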
